A study of Mus musculus with 2 samples.

Results

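The miR-200 family is a group of 5 miRNA genes, miR-200a, miR-200b, miR-200c, miR-141 and miR-429, and all of their mature arms were taken here by name. The hairpins are annotated with 10 mature arms. Of these, 8 were listed among the 1147 entries of the miRNA table from mouse jejunum muscle, namely the 3p arms mmu-miR-200a-3p, mmu-miR-200b-3p, mmu-miR-200c-3p, mmu-miR-141-3p and mmu-miR-429-3p and the 5p arms of miR-200a, miR-200b and miR-141. The 5p arms of miR-200c and miR-429 were not listed.

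Small RNA was sequenced from the muscle layer of the jejunum (tunica muscularis), peeled off the mucosa, of 15-day-old C57BL/6 mice, with 1 library for *Dnmt1*-WT and 1 for *Dnmt1*-KO. *Dnmt1* encodes the DNA methyltransferase that copies CpG methylation to new DNA strands. Both genotypes carried the smMHC Cre-eGFP/+ transgene, which expresses Cre and a green fluorescent reporter from a *Myh11* promoter and so acts in smooth muscle cells, and in *Dnmt1*-KO mice it removes a floxed part of *Dnmt1* from these cells. Epithelial cells left on the peeled layer are not a target of this Cre. The strain label names Dnmt1lox/lox for both samples, and the free-text note of the *Dnmt1*-WT sample names a *Dnmt1*-/- genotype, against its title and its genotype label, which were followed here. Small RNA libraries hold no *Dnmt1* mRNA reads with which the labels could be checked. Male and female mice were used for each genotype, and whether RNA of several mice was pooled for a library is not given in the sources used here. With 1 library per genotype the difference between genotypes cannot be set against the spread between animals, so no test was made. The intervals given with each ratio are 95% intervals of counting error only, and since reads carried no molecular identifiers, each read is not a molecule of its own.

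The miR-200 family is known as a marker of epithelial cells. Its members repress *Zeb1* and *Zeb2*, transcription factors that switch off E-cadherin, and so hold cells in the epithelial state, while smooth muscle and other mesenchymal cells are known for low levels. In the intestine, the epithelium of the mucosa is their usual place. The genes lie in separate clusters on different chromosomes, each transcribed as a common precursor, and the mature 3p arms carry either of a pair of seeds, the stretch of bases 2 to 8 that pairs with target mRNAs.

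The mature sequences are shown because seed and cluster divide the family in different ways. They were read from the RefSeq annotation of mouse build GRCm38.p6, 5′ to 3′, with the seed in capitals.
mmu-miR-200b-3p: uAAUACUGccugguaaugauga
mmu-miR-200c-3p: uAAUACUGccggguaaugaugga
mmu-miR-429-3p: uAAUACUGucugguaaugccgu
mmu-miR-200a-3p: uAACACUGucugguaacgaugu
mmu-miR-141-3p: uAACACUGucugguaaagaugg

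The miR-200b, miR-200c and miR-429 3p arms share the seed AAUACUG, and the miR-200a and miR-141 3p arms share AACACUG. The seeds differ at 1 base, position 4 from the 5′ end, written as U4C from miR-200b-3p to miR-200a-3p. None of the other listed entries had either seed, among the 918 with a RefSeq sequence. Over the first 22 bases, miR-200b-3p and miR-200c-3p differ by U11G and A22G, and miR-200a-3p and miR-141-3p by C17A and U22G. Within the AAUACUG group, miR-429-3p is the most distant, with C9U, A19C, U20C and A22U from miR-200b-3p.

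The miR-200b/miR-200a/miR-429 cluster spans 1846 bases of chromosome 4 (chr4:156053905-156055750, minus strand, GRCm38). In the GENCODE annotation all 3 hairpins lie in an intron of the protein-coding gene *Ttll10*, on its strand. They also overlap the non-coding transcript *Gm13648*, with mir-200b and mir-200a in an intron and mir-429 in an exon. The miR-200c/miR-141 cluster spans 477 bases of chromosome 6 (chr6:124717914-124718390, minus strand), and both of its hairpins lie in an intron of *Gm15884*, annotated as an antisense RNA. Part of mir-141 overlaps an exon of *Gm29008*. Each cluster holds both seeds.

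Among the 1147 entries, the 5 3p arms ranked between 190 and 349 in *Dnmt1*-WT and between 162 and 313 in *Dnmt1*-KO. The deposited values are reads multiplied by a factor close to 1 for each library, so that a value of 1 is about 1 read. The most abundant member was mmu-miR-200b-3p, with 422.2 in *Dnmt1*-WT and 596.3 in *Dnmt1*-KO, which gave it the highest of these ranks in both libraries. In *Dnmt1*-KO it was 1.41 times its *Dnmt1*-WT value (1.24 to 1.60). For mmu-miR-200a-3p, the values were 298.3 and 276.7, a ratio of 0.928 (0.785 to 1.10), and for mmu-miR-429-3p they were 174.5 and 154.6, a ratio of 0.886 (0.709 to 1.11). The intervals of both reach across 1, so no difference was detectable at this depth, although these arms come from the same cluster as miR-200b.

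The chromosome 6 members were lower in abundance and had ratios above 1. The value of mmu-miR-141-3p was 103.8 in *Dnmt1*-WT and 135.1 in *Dnmt1*-KO, a ratio of 1.30 (1.0 to 1.70). The value of mmu-miR-200c-3p was 65.2 and 107.7, a ratio of 1.65 (1.20 to 2.28), the highest of the 3p arms. The order of levels in *Dnmt1*-WT was miR-200b, miR-200a, miR-429, miR-141 and miR-200c, and it was the same in *Dnmt1*-KO. In *Dnmt1*-WT each neighbour in this order was apart from the next by its counting interval, while in *Dnmt1*-KO the intervals of miR-429-3p and miR-141-3p overlapped, and so did those of miR-141-3p and miR-200c-3p. Levels of different miRNAs also depend on how well each sequence is captured in a small RNA library, which was not tested.

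**Figure D1:**
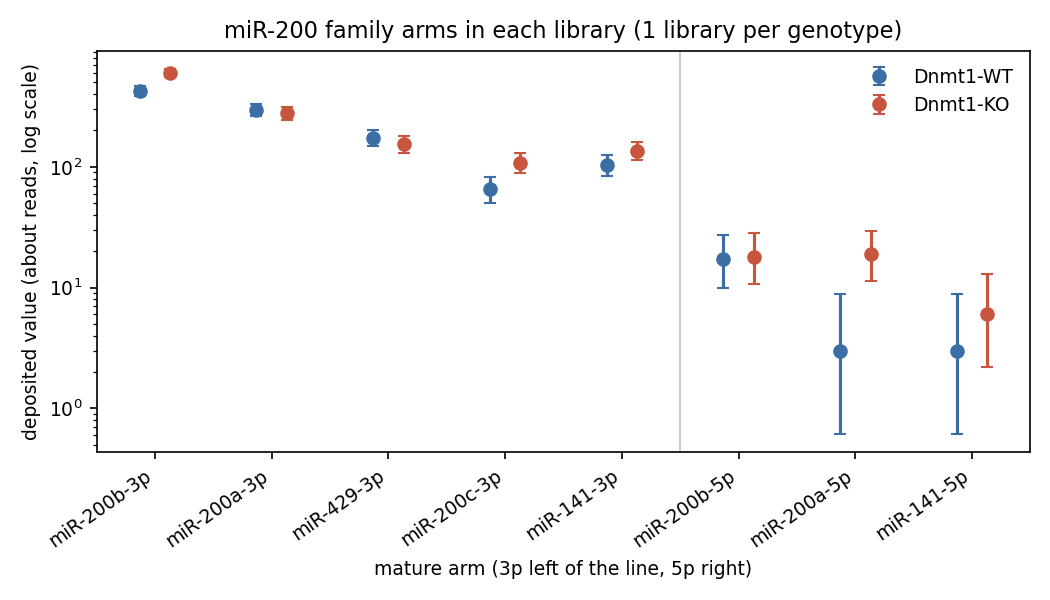
Deposited value (about reads, log axis) of each listed miR-200 family arm in the *Dnmt1*-WT and the *Dnmt1*-KO library, with 95% Poisson intervals of counting error as bars and 1 library per genotype. Above all others stands miR-200b-3p, and the bars of the 2 libraries are apart for miR-200b-3p and miR-200c-3p among the 3p arms, while the 5p arms lie at 19.0 or below. For how many of all entries such bars are apart was not counted.

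The 5p arms are the strands that are usually discarded from the duplex, and they were rare here. The listed ones are shown because miR-200a-5p and miR-200b-5p share a seed, in capitals, that miR-141-5p does not have.
mmu-miR-200b-5p: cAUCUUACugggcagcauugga
mmu-miR-200a-5p: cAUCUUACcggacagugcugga
mmu-miR-141-5p: cAUCUUCCagugcaguguugga

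The value of mmu-miR-200b-5p was 17.1 in *Dnmt1*-WT and 18.0 in *Dnmt1*-KO, a ratio of 1.05 (0.512 to 2.17). For mmu-miR-200a-5p the values were 3.0 and 19.0, a ratio of 6.33 (1.86 to 33.5), and for mmu-miR-141-5p they were 3.0 and 6.0, a ratio of 2.00 (0.427 to 12.4). Both of the latter rest on 3 reads in *Dnmt1*-WT. The 5p arms of miR-200c and miR-429 were not listed, and if taken as a count of 0 this allows an expected level of up to 3 reads, or 0.524 RPM (reads per 1000000 listed reads) in *Dnmt1*-WT and 0.629 RPM in *Dnmt1*-KO.

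Both arms of a hairpin are cut from the same RNA, so their balance does not depend on the scaling of the libraries. The mir-200a hairpin is shown with its arms in capitals, the 5p arm first.
mir-200a: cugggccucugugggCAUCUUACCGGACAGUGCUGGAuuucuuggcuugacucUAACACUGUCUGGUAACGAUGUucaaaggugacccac
It lies at chr4:156054896-156054985 on the minus strand. The 5p arm held 0.996% of the reads of this hairpin in *Dnmt1*-WT (0.205 to 2.89%, exact binomial interval) and 6.43% in *Dnmt1*-KO (3.92 to 9.85%), so the 5p/3p ratio was 6.79 times higher in *Dnmt1*-KO (1.96 to 36.1, exact conditional interval). For miR-200b, the 5p share was 3.89% and 2.93%, with a ratio of 0.745 (0.358 to 1.56), and for miR-141 it was 2.81% and 4.25%, with a ratio of 1.54 (0.320 to 9.73). Of the 3 hairpins with both arms listed, mir-200a was the one whose interval left out 1, with 3 reads of its 5p arm in *Dnmt1*-WT. How many hairpins outside the family have such an interval was not counted, so this does not set mir-200a apart from them.

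An entry was counted as changed in size when its values differed at least 2-fold. Of the 8 members, 2 had *Dnmt1*-KO values at least 2-fold above *Dnmt1*-WT, the rare arms miR-200a-5p and miR-141-5p, where 26.7% of all 1147 entries were. The second lay at the threshold. Its 3 and 6 reads, put back on the deposited scale without rounding to 1 decimal, gave a ratio of 1.99. No member was at least 2-fold lower, where 23.1% of all entries were. Both shares include entries of a few reads, and past a minimum mean of 100 the shares were 6.33% and 8.86%. The 4 members above that mean, the 3p arms of miR-200b, miR-200a, miR-429 and miR-141, held 0 in either direction. At such shares, 0 of 4 is no result about the members.

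The log2 ratios of those 4 members had a median of 0.14, beside -0.03 for the 313 entries past this mean that were above 0 in both libraries, whose SD was 0.76 and whose middle 50% lay between -0.50 and 0.38. For all 8 members the median was 0.44, beside 0 for the 794 entries above 0 in both libraries. Of the 313 entries, 20.1% had a higher ratio than mmu-miR-200b-3p, 24.6% a higher one than mmu-miR-141-3p and 12.1% a higher one than mmu-miR-200c-3p. At the other end, 45.7% had a lower ratio than mmu-miR-200a-3p and 39.6% a lower one than mmu-miR-429-3p. Each 3p arm had a log2 ratio smaller in size than the SD of these entries.

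**Figure D2:**
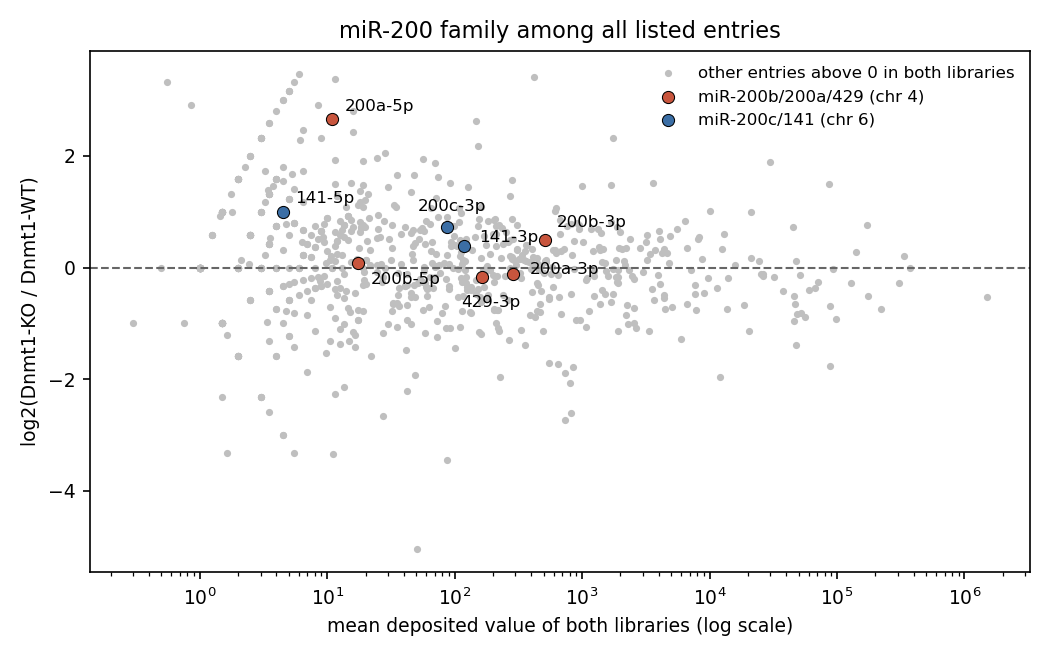
Log2 of the *Dnmt1*-KO/*Dnmt1*-WT ratio of the deposited values against the mean of both libraries (log axis), for every entry above 0 in both libraries (grey) and for the 8 miR-200 family arms coloured by cluster. The 3p arms lie between -0.17 and 0.72 inside the grey cloud, and the rare miR-200a-5p stands at 2.66.

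Summed over its 8 arms, the family had 1087.1 in *Dnmt1*-WT and 1313.4 in *Dnmt1*-KO, a ratio of 1.21 (1.11 to 1.31). The 3p arms alone gave 1064.0 and 1270.4. Most of the difference in the sum came from miR-200b, whose 3p arm held 38.8% of the family's reads in *Dnmt1*-WT and 45.4% in *Dnmt1*-KO. Without both miR-200b arms, the family ratio was 1.08 (0.968 to 1.20).

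The ratio depends on the scale between the libraries. The *Dnmt1*-WT library had a deposited total of 5741906 and the *Dnmt1*-KO library one of 4754677, and with totals set equal each ratio is 1.21 times higher, a shift of 0.27 on the log2 scale. The family then had 189 RPM in *Dnmt1*-WT (178 to 201, exact binomial interval) and 276 RPM in *Dnmt1*-KO (262 to 292), a ratio of 1.46 (1.35 to 1.58). On this scale the ratio was 1.71 for miR-200b-3p (1.50 to 1.94), 1.57 for miR-141-3p (1.21 to 2.05) and 1.99 for miR-200c-3p (1.45 to 2.76). It was above 1 also for miR-200a-3p, at 1.12 (0.948 to 1.32), and for miR-429-3p, at 1.07 (0.856 to 1.34), so the direction of these 2 arms turns with the scale. The family's share depends on the total as well. With the smooth muscle list given below left out of the total, it was 308 RPM in *Dnmt1*-WT and 397 RPM in *Dnmt1*-KO.

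**Figure D3:**
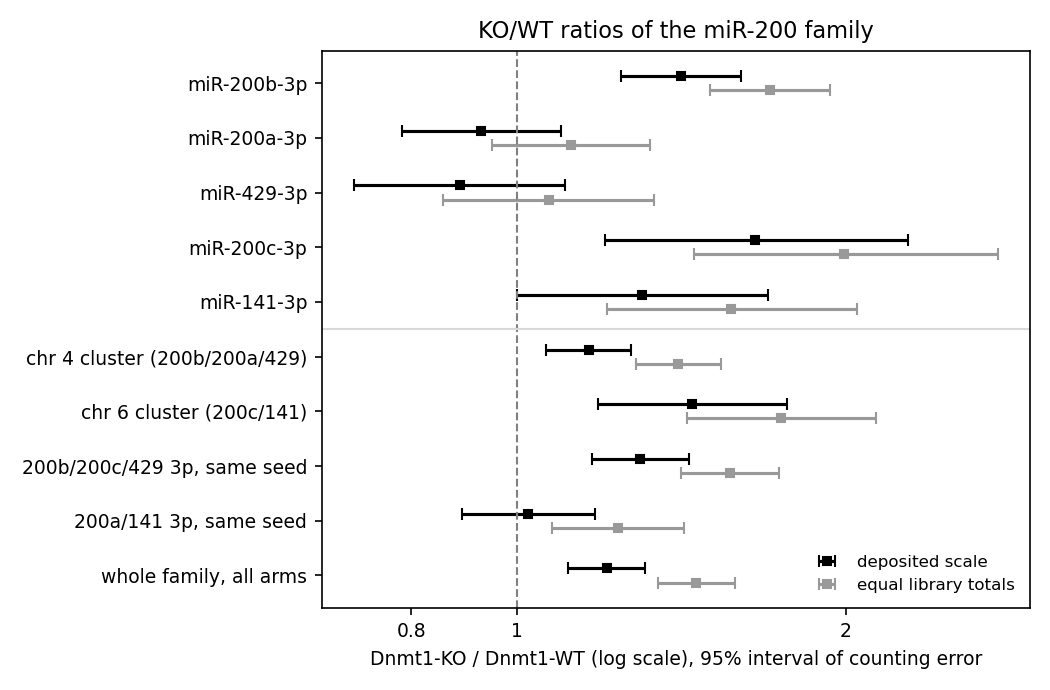
*Dnmt1*-KO/*Dnmt1*-WT ratios (log axis) of the 5 3p arms, of the clusters, of the seed groups and of the whole family, on the deposited scale (black) and with library totals set equal (grey), with 95% intervals of counting error. On the deposited scale miR-200b-3p, miR-200c-3p and miR-141-3p lie above 1 and miR-200a-3p and miR-429-3p below it, and with equal totals all 5 lie above 1.

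The clusters were compared first. The chromosome 4 cluster, miR-200b/miR-200a/miR-429, had a sum of 915.1 over 5 arms in *Dnmt1*-WT and of 1064.6 in *Dnmt1*-KO, a ratio of 1.16 (1.06 to 1.27). The chromosome 6 cluster, miR-200c/miR-141, summed to 172.0 and 248.8 over 3 arms, a ratio of 1.45 (1.19 to 1.77). As shares of the library these were 159 and 224 RPM for chromosome 4 and 30.0 and 52.3 for chromosome 6. The chromosome 6 cluster made up 15.8% of the family in *Dnmt1*-WT and 18.9% in *Dnmt1*-KO. Its ratio was 1.24 times that of the chromosome 4 cluster, a value that is free of the scaling, and the interval, 0.993 to 1.54, reached across 1.

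Within the chromosome 4 cluster the members did not move alike. Without miR-200b, its remaining arms had a sum of 475.8 in *Dnmt1*-WT and of 450.3 in *Dnmt1*-KO on the deposited scale, and their ratio was 0.946 (0.830 to 1.08), so that the direction of the cluster rested on miR-200b. With equal totals the same arms gave 1.14 (1.0 to 1.30).

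Grouped by seed, the AAUACUG arms (miR-200b, miR-200c and miR-429) had 661.9 in *Dnmt1*-WT and 858.6 in *Dnmt1*-KO, a ratio of 1.30 (1.17 to 1.44). The AACACUG arms (miR-200a and miR-141) summed to 402.1 and 411.8, a ratio of 1.02 (0.890 to 1.18). The AAUACUG seed thus made up 62.2% of the 3p reads in *Dnmt1*-WT and 67.6% in *Dnmt1*-KO, and the ratio of the seed ratios was 1.27 (1.06 to 1.51). It was 1.36 within the chromosome 4 cluster (1.11 to 1.66) and 1.28 within the chromosome 6 cluster (0.842 to 1.95). Without miR-200b it was 1.07, and miR-429-3p, which carries AAUACUG, had a ratio below that of either AACACUG arm.

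All 10 pairs of 3p arms were then compared by the ratio of their ratios, again free of the scaling. The interval left out 1 in 6 pairs at 95% and in 4 at 99.5%, the level that allows for 10 pairs. At the wider level miR-200b-3p stood above miR-200a-3p by 1.52 times (1.13 to 2.06) and above miR-429-3p by 1.59 times (1.11 to 2.30). The ratio of miR-200a-3p was 0.561 of that of miR-200c-3p (0.334 to 0.935), and that of miR-429-3p was 0.536 of it (0.306 to 0.932). Thus miR-200b-3p and miR-200c-3p stood apart from miR-200a-3p and miR-429-3p. This division follows neither the clusters nor the seeds. How many pairs of entries outside the family have such an interval was not counted, so the division does not set the family apart from them. The ratio of miR-200b-3p was 0.855 of that of miR-200c-3p (0.603 to 1.21 at 95%), and that of miR-200a-3p was 1.05 times that of miR-429-3p (0.791 to 1.39).

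In the middle was miR-141-3p. Its ratio was not separable from that of miR-200b-3p (1.09, 0.814 to 1.47 for miR-200b-3p over miR-141-3p) or miR-200c-3p (1.28, 0.842 to 1.95 for miR-200c-3p over miR-141-3p). Against it miR-200a-3p stood at 0.718 (0.524 to 0.984) and miR-429-3p at 0.686 (0.484 to 0.973), pairs that did not pass the wider level. The reads behind miR-200a-3p and miR-141-3p came out as fractions, 297.4 and 277.5 for miR-200a-3p and 103.5 and 135.5 for miR-141-3p, while those of the other 3p arms came out whole. These 2 arms share their first 16 bases. Whether reads were divided between them, and what this did to their ratios, was not tested.

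The family was next set beside other miRNAs that mark epithelium, as a measure of mucosa left on the peeled muscle. In bulk tissue, fewer cells of a type and less RNA per cell cannot be told apart. As a check of the labelled tissue, the smooth muscle list (miR-143, miR-145a, miR-145b, miR-133a, miR-133b and miR-1a, 11 entries) held 38.6% of the *Dnmt1*-WT library and 30.4% of the *Dnmt1*-KO library, against 0.0189% and 0.0276% for the miR-200 family. The ratio of the list was 0.652 (0.651 to 0.654), with 0.694 for miR-143-3p, 0.598 for miR-145a-5p and 0.295 for miR-133a-3p. In the other direction, miR-145b had 30.6 in *Dnmt1*-WT and 50.4 in *Dnmt1*-KO, a ratio of 1.65 (1.03 to 2.67). The family relative to the whole smooth muscle list was 1.85 times higher in *Dnmt1*-KO (1.71 to 2.01).

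The miRNAs of the absorptive intestinal epithelium, miR-192, miR-194 and miR-215 with 7 entries, had a sum of 13558 in *Dnmt1*-WT and of 17033 in *Dnmt1*-KO, a ratio of 1.26 (1.23 to 1.29), or 2361 and 3582 RPM. The family relative to this list was at 0.962 (0.884 to 1.05), so a difference between them was not detectable. This list was itself mixed. The ratio was 1.79 for miR-192-5p, 0.958 for miR-194-5p and 0.977 for miR-215-5p, and the family was at 0.675 relative to miR-192-5p (0.617 to 0.738), at 1.26 relative to miR-194-5p (1.13 to 1.41) and at 1.24 relative to miR-215-5p (1.13 to 1.35). The miR-200 family thus lay between them, with miR-200a-3p and miR-429-3p on the side of miR-194-5p and miR-215-5p.

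The endocrine and secretory marker miR-375-3p had 261.7 in *Dnmt1*-WT and 298.2 in *Dnmt1*-KO, a ratio of 1.14 (0.962 to 1.35), and the family relative to it was at 1.06 (0.878 to 1.28). The list of other epithelial miRNAs (8 entries) had 1098 in *Dnmt1*-WT and 1693 in *Dnmt1*-KO, a ratio of 1.54 (1.43 to 1.67), and the family relative to it was at 0.783 (0.700 to 0.877). In it miR-203-3p, a miRNA of stratified epithelium, had a ratio of 2.02, miR-182-5p of 1.70 and miR-183-5p of 1.40. The ratio of miR-31-5p was 0.884, and miR-205-5p, of squamous epithelium, was at 8.0 and 29.9. The lowest main arm of the list, miR-96-5p, was at 4.0 in both libraries, and no main arm of an epithelial marker was at 0. Of the 16 epithelial entries outside the family, 12 had a mean of at least 10. Of these 9 were higher in *Dnmt1*-KO and 3 lower, with a median log2 ratio of 0.53. Of the 531 entries past the same minimum that were above 0 in both libraries, 50.5% were higher, and their median was 0.02. With equal totals 12 of the 12 were higher and 0 lower, beside 65.2% of the 531 entries. The minimum of 10 lets in entries that reach it only through *Dnmt1*-KO, such as miR-205-5p and miR-194-2-3p. Past a mean of 100, 5 of 8 epithelial entries were higher and 3 lower on the deposited scale, with a median log2 ratio of 0.34. Of the 313 entries past that mean and above 0 in both libraries, 47.0% were higher, and their median was -0.03.

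**Figure D4:**
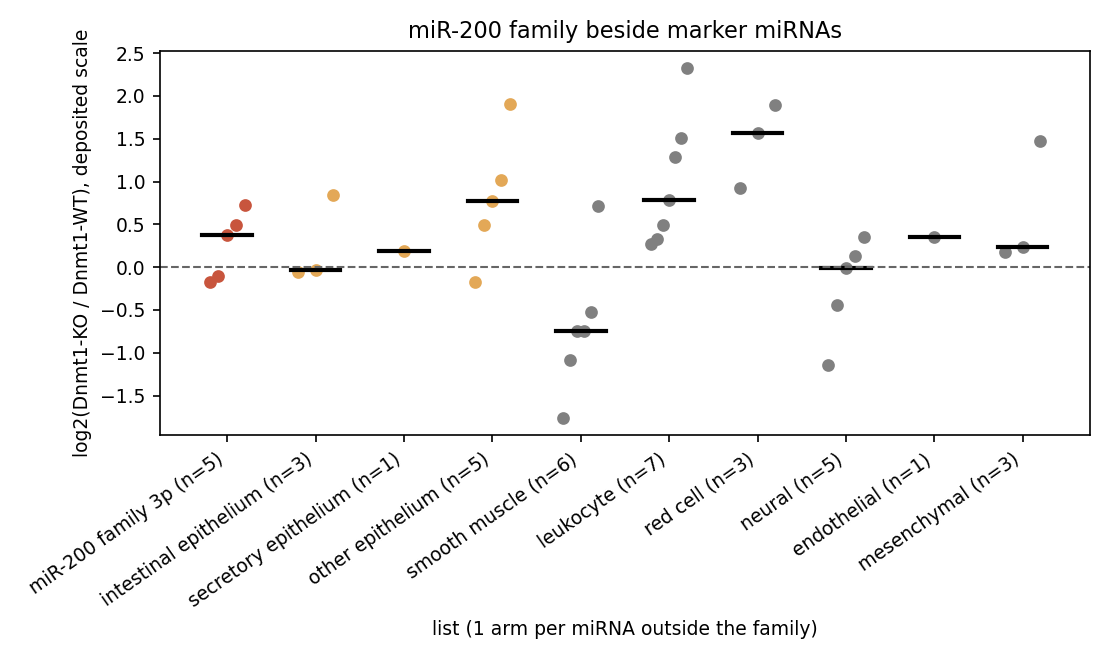
Log2 of the *Dnmt1*-KO/*Dnmt1*-WT ratio on the deposited scale for the 3p arms of the miR-200 family (red), the more abundant arm of each epithelial miRNA outside it (yellow) and of each miRNA on lists of other cell types (grey) with a mean of at least 10, with the list's median as a bar. The points of the family and of the intestinal and other epithelium lists lie on both sides of 0, while 5 of 6 smooth muscle points lie below it and the leukocyte and red cell points lie above it.

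Lists of other cell types differed between the libraries as well. The leukocyte list (miR-142a, miR-150, miR-155, miR-223, miR-342, miR-146a and miR-146b, 13 entries) had a ratio of 1.54 (1.52 to 1.57), with 11 entries higher and 2 lower, where 49.5% of the 794 entries above 0 in both libraries were higher. Its main arms ranged from 1.20 for miR-342-3p to 5.01 for miR-142a-5p. Relative to it the family was at 0.782 (0.720 to 0.851). The red cell list (miR-451a, miR-144 and miR-486a) had a ratio of 3.70, and most of its sum was miR-486a-5p (12591.6 and 46756.4). In this list miR-451a was at 2.98 and miR-144-5p at 1.90 (0.840 to 4.58). The ratio was 1.42 for the endothelial miR-126a and 1.19 for the mesenchymal list (miR-199a, miR-199b and miR-214). For the neural list (miR-9, miR-124, miR-129, miR-137 and miR-138) it was 0.914, which turned to 1.10 with equal totals. The mesenchymal list was itself mixed, with 1.13 for its most abundant arm, miR-199b-3p, 1.18 for miR-199a-5p and 2.78 for miR-214-3p. So was the neural list, where 4 of the 12 entries were higher in *Dnmt1*-KO and 8 lower on the deposited scale. Its main arms lay at 0.453 for miR-138-5p, the most abundant in *Dnmt1*-WT, 0.736 for miR-124-3p and 0.990 for miR-137-3p. Against these, miR-9-5p was at 1.09 and miR-129-5p at 1.28. Without miR-138-5p the ratio of the neural list was 1.11 (1.07 to 1.15). The part of mucosal cells, of blood cells and of the smaller share of smooth muscle miRNAs in the family's values was not tested.

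Nearest to the family in ratio, among 309 entries with a mean of at least 100, were let-7a-5p at 1.208, miR-342-3p, also on the leukocyte list, at 1.203 and miR-329-5p at 1.200. With 2 libraries a ratio is the whole of the pattern, and 42 entries had a ratio inside the family's interval.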

How the data were processed

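Small RNA was extracted with a mirVana kit, and Illumina TruSeq small RNA libraries were sequenced and processed by a commercial provider. The submitters' processing notes name Bowtie and mm10. How reads matching more than 1 miRNA were handled, which miRNA database was used and how values were scaled are not given in the sources used here. The deposited table gives, for each miRNA, a scaled read count per library with 1 decimal (the unit entered as other, since the scaling is not named), and a column with the authors' own KO/WT fold change, which was not used.

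Reads were recovered as the deposited value divided by a step per library, 1.00286 for *Dnmt1*-WT and 0.997209 for *Dnmt1*-KO, with which 88.6% of the 229 *Dnmt1*-WT values and 91.1% of the 248 *Dnmt1*-KO values from 20 to 300 came out whole within 0.056. Other steps gave a median of 8.30% and 8.06%. This gave 5725543 and 4767987 reads. No count model was fitted, since there was 1 library per group. Ratios carry exact (Clopper-Pearson) binomial intervals of the reads without rounding, and ratios of ratios exact conditional intervals of the rounded reads. Computation used Python 3.11.15, NumPy 2.4.6, SciPy 1.17.1 and Matplotlib 3.10.9, and the intervals were tested on simulated data.

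The members, the 9 marker lists, the comparisons and the alternatives were chosen with earlier results of these data known. Lists hold all listed arms of each miRNA, and all arms of the 5 genes, the more abundant arm of each list miRNA with a mean of at least 10, entries with the 3p seeds and the 3 entries nearest in ratio were to be named. Alternatives were equal totals, equal totals without miR-143-3p, the median ratio of abundant entries set to 1, a pseudocount of 1, minimum means, 3p arms only, geometric means, leaving out miR-200b, and other denominators. The mRNA libraries of the study were not analysed here.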

Additional observations from a re-analysis of the deposited data

How the results depend on the processing

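The choice of scale moved the family most. Its ratio was 1.46 with equal totals and 1.36 with equal totals without miR-143-3p, and it was 1.08 without miR-200b. The chromosome 4 cluster was at 1.40 and 1.31 on those scales, at 1.05 as the geometric mean of its 3p ratios, and turned to 0.946 without miR-200b. With equal totals miR-200b-3p was at 1.71 and miR-200a-3p at 1.12. The family's share was 274 RPM in *Dnmt1*-WT and 373 in *Dnmt1*-KO with miR-143-3p left out of the total, and 308 and 397 with the smooth muscle list left out. The count of members at least 2-fold higher was 1 with a pseudocount of 1 or a minimum mean of 10, and 0 with a minimum mean of 100. The chromosome 6 cluster stayed above 1 under each scaling, pseudocount and summary tried, and the ratio of cluster ratios was 1.52 without miR-200b. The neural list turned to 1.10 with equal totals, to 1.03 with equal totals without miR-143-3p and to 1.11 without miR-138-5p, alternatives chosen after seeing the data. In all, 68 recomputed values stayed within the counting interval of the reported one, kept the same count or, for the median of the other epithelial miRNAs, stayed within the list's quartiles. Another 15 did not, and a further 4 turned to the other side of 1. No paired analysis was possible because there is 1 library per genotype and no test, and no library could be left out. Depth limits the 5p arms, which rest on 3 to 19 reads.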
